A study of Mus musculus with 2 samples.

Results

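The 49 genes described here carry a cell through division or hold it back: the licensing and helicase genes of DNA replication, the enzymes of nucleotide supply, the cyclins and their kinases, the genes of G2 and mitosis, the kinase inhibitors, and the pocket proteins with their E2F factors. They were taken from a list of gene names, which was chosen with earlier results of these data known. Matching was by GENCODE M21 identifier and used no measured value, and all 49 were found among the 55536 annotated genes of both libraries. The RNA came from regulatory T cells, a Foxp3-dependent branch of CD4 T cells that keeps other immune cells in check. It was polyA plus RNA of primary cells from 1 adult male mouse aged 4 months, of a strain that the labels call Foxp3CreERT2 x Rosa26YFP. By its name the strain carries CreERT2, a tamoxifen-responsive Cre recombinase, at Foxp3 and a YFP reporter at Rosa26. The labels trace the cells to a haematopoietic cell of the bone marrow and name no treatment, sort or gate. Both libraries are technical replicates of that 1 biological sample, so they form 1 group, no condition is compared, and each SD (n = 2) covers technical variation only.

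In a dividing cell, D-type cyclins with Cdk4 or Cdk6 and then E-type cyclins with Cdk2 phosphorylate the pocket proteins, which frees E2F factors to switch on replication genes. Later, cyclins A and B with Cdk1 drive mitosis, and many of the genes for that step are read through a promoter element called the CHR, bound by the MuvB complexes. Inhibitors of the INK4 family bind Cdk4 and Cdk6, while p21 and p27 bind the cyclin and kinase pair, and resting T cells are known to hold p27 at a high level.

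The libraries held 15821759 and 16153560 rounded estimated counts on annotated genes. An absent gene could still have had up to 3 counts, or 0.190 CPM (counts scaled to the library total) in library 1 and 0.186 CPM in library 2, with only counting error considered. The label was compared with marker lists, which were chosen with earlier results of these data known. All 4 regulatory T cell markers were expressed, from 39.7 TPM (a length-scaled share of the library's transcripts) for Foxp3 to 464 TPM for Ikzf2, as were all 4 T cell markers. No B cell, erythroid, progenitor or T precursor marker reached 1 TPM in both libraries, and 1 of 4 myeloid markers did (Cd68). Markers of CD8 T and NK cells were expressed in 4 of 4 cases, with summed levels of 93.2 and 96.9 TPM of which Nkg7 held most, and 2 of 4 stroma markers were expressed (Pecam1 and Epcam). The part of such cells in the levels below was not tested. In RNA from many cells, fewer dividing cells and less RNA per dividing cell cannot be told apart.

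Expressed here means 1 TPM or more in both libraries. Of the 49 genes, 45 were expressed, against 24.3% of all genes and 46.5% of protein-coding genes. Those below were Bub1, Ccnd1, E2f1 and Cdkn2a. At 5 TPM or more in both libraries there were 35 genes, and at 50 TPM or more there were 8. The median level of the 49 was 11.2 TPM, beside 18.5 TPM for the 10251 expressed protein-coding genes, and 21 of the 49 lay above that median. Together the 49 held 0.325% of the counts of library 1 and 0.319% of those of library 2, and Ccnd2 alone held 33.0% of their counts in each. When the genes are ordered by level, 30 of the 48 neighbouring pairs overlapped in the range of their libraries, so only the coarse order is resolved.

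**Figure D1:**
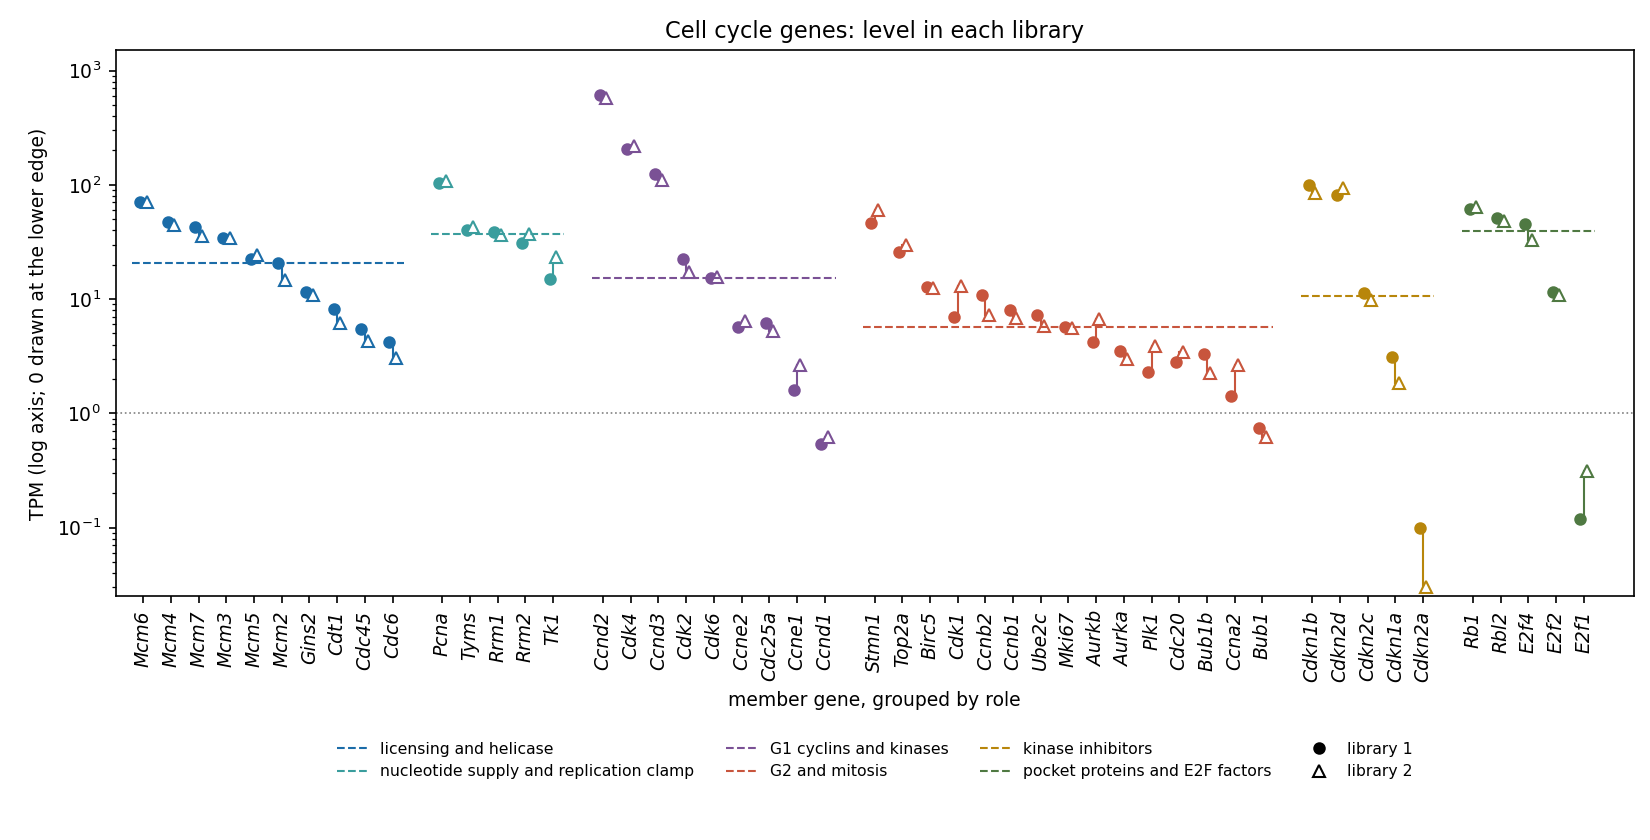
The level of each of the 49 genes in TPM on a log axis, as a filled circle for library 1 and an open triangle for library 2, grouped by role; dashed lines are the medians of each role and the dotted line is 1 TPM. Mean levels run from 593 TPM for Ccnd2 to 0.05 TPM for Cdkn2a, and the G2 and mitosis genes have the lowest median, 5.66 TPM.

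All 10 licensing and helicase genes were expressed, and their median was 20.6 TPM. Mcm2 to Mcm7 encode the 6 subunits of the helicase that is loaded onto origins and unwinds DNA. Mcm6 (chr1:128331590-128359664, minus strand, mm10) had 70.6 TPM in library 1 and 70.7 TPM in library 2, the highest of the role. Mcm4 had 47.0 and 44.2 TPM, Mcm7 had 42.6 and 35.4, Mcm3 had 34.3 and 34.4, Mcm5 had 22.5 and 24.4, and Mcm2 had 20.8 and 14.7. The subunits form a ring with 1 copy of each, yet their transcript levels were not equal: Mcm6 stood at 4.10 ± 0.99 times the level of Mcm2 (n = 2). This order was the same in both libraries, and no neighbours in it overlapped.

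The loaders and partners of that ring were lower. Cdc6, which loads the helicase with the origin complex, had 4.18 and 3.06 TPM. Cdt1, its partner in loading, had 8.16 and 6.13 TPM. Cdc45 had 5.45 and 4.33 TPM and Gins2 had 11.5 and 10.8 TPM; both join the ring to form the active helicase. All 4 lay under every one of the 6 ring subunits in both libraries. A list of 15 further origin and GINS genes, none of them among the 49, was expressed throughout. Its median was 14.8 TPM, from 1.42 TPM for Mcm8 to 93.8 TPM for Orc4. In that list Gmnn, which encodes the Cdt1 inhibitor geminin, had 17.5 and 19.9 TPM, above Cdt1 in both libraries.

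The promoter windows of 2 subunits are shown because they hold the letters through which E2F factors are known to read replication genes. Each runs from 250 bases before to 50 bases after a RefSeq transcript start, on the gene's own strand, in GRCm38.p6. Capitals mark matches to an E2F motif, searched on both strands as TTTCCCGC, TTTCGCGC, TTTGCCGC or TTTGGCGC. Mcm5 (chr8:75109259-75109558, plus strand) and Mcm6 (chr1:128359656-128359955, minus strand) each hold 2 matches that overlap on opposite strands, and Mcm6 holds a further one.
Mcm5: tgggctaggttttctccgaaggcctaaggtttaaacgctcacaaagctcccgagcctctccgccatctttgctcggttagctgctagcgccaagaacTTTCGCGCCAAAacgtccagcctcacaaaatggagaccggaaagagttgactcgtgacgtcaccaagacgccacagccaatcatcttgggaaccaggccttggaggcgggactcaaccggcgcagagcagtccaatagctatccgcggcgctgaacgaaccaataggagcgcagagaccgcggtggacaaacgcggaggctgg
Mcm6: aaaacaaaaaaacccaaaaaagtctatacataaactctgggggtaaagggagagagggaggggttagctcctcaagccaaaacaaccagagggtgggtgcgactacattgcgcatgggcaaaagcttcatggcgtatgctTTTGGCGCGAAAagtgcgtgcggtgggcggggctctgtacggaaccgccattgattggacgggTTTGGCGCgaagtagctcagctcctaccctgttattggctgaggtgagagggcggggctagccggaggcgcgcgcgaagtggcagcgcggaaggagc

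RefSeq windows were found for 39 of the 49 genes. An E2F match was present in 6 of the 8 licensing and helicase genes with a window and in 11 of all 39, beside 2.61% of 27025 genes with a window. By role the others were 0 of 5 for nucleotide supply, 2 of 6 for G1 cyclins and kinases (Cdk2 and Cdc25a), 1 of 12 for G2 and mitosis (Cdk1), 1 of 5 for the inhibitors (Cdkn2a) and 1 of 3 for the pocket proteins and E2F factors (E2f2). The genes of a published S phase score that are not among the 49 held a match in 9 of the 22 genes with a window. A match is a description of letters, and its absence says only that these letters are not in the window.

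The nucleotide supply genes and the replication clamp had the second highest role median, 37.4 TPM, and all 5 were expressed. Pcna (chr2:132249162-132253314, minus strand), the sliding clamp of DNA polymerase that also serves in DNA repair, had 103 and 109 TPM. Tyms, thymidylate synthase, had 40.4 and 43.1 TPM. Rrm1 had 38.7 and 36.1 TPM and Rrm2 had 31.2 and 37.0 TPM. These are the subunits of ribonucleotide reductase. Over all transcripts their ratio Rrm1 to Rrm2 was 1.11 ± 0.19 (n = 2), with Rrm1 the higher in library 1 and Rrm2 in library 2. Over transcripts with a complete coding sequence only, the ratio was 0.731 ± 0.061 (n = 2), with Rrm2 the higher in both libraries. Tk1, the thymidine kinase of dividing cells, had 15.0 TPM in library 1 and 23.4 TPM in library 2.

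A published S phase score of 43 genes had 41 expressed ones and a median of 13.6 TPM. Leaving out its members among the 49, 29 of 31 were expressed and the median was 11.7 TPM. The highest was Slbp, the histone mRNA binding protein, at 109 TPM, and the lowest was E2f8, a repressor of the E2F family, at 0.81 TPM. The other gene not expressed was Brip1, at 0.98 and 1.02 TPM.

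The G1 cyclins and kinases ran from 593 ± 24.4 TPM for Ccnd2 to 0.58 ± 0.06 TPM for Ccnd1 (n = 2 each). Ccnd2 (chr6:127125162-127152193, minus strand), cyclin D2, had 610.5 and 576 TPM, above 98.2% of expressed protein-coding genes. Ccnd3, cyclin D3, had 125 and 110.4 TPM. Ccnd1, cyclin D1, had 0.54 and 0.62 TPM from 24.9 and 29.8 counts. The 3 D-type cyclins had the same order in both libraries with no overlap, and Ccnd2 stood at 5.04 ± 0.24 times Ccnd3. In the deposited tables, the posterior SD of the Ccnd1 count was 8.55% and 6.07% of that count. It also lies opposite to LTO1, which had 527 and 533 counts.

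The partner kinases followed. Cdk4 had 205 and 219 TPM and Cdk6 had 15.4 and 15.5 TPM. Cdk2, the partner of the E-type cyclins, had 22.6 and 17.2 TPM. Ccne2 had 5.75 and 6.43 TPM, while Ccne1 had 1.61 and 2.63 TPM from only 32 and 31 counts. Cdc25a, the phosphatase that removes the inhibitory phosphate from Cdk2, had 6.20 and 5.23 TPM. Among 9 other cyclins and kinases, 7 were expressed. They were led by Ccnh at 116 TPM and Cdk7 at 64.3 TPM, which form the kinase that activates other cycle kinases, and both germline cyclins Ccna1 and Ccnb3 had 0 counts in both libraries.

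The G2 and mitosis genes were the lowest role, with a median of 5.66 TPM and 14 of 15 expressed. Stmn1, stathmin, which destabilises microtubules and is not limited to dividing cells, was the highest at 46.6 and 60.0 TPM. Top2a, the topoisomerase that untangles replicated chromosomes, had 25.6 and 29.4 TPM. Birc5, survivin, had 12.9 and 12.6 TPM. Past these, no gene of the role had a mean over 10 TPM.

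The mitotic cyclins and their kinase were each under 14 TPM. Cdk1 had 6.93 and 13.0 TPM from 85 and 146 counts. Ccnb2 had 10.9 and 7.30 TPM, Ccnb1 had 8.08 and 6.76 TPM, and Ccna2, cyclin A2, had 1.42 and 2.66 TPM. Both cyclin B genes were higher in library 1 while Cdk1 was higher in library 2.

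The kinases, checkpoint and degradation genes of mitosis came next. Aurkb had 4.21 and 6.70 TPM, Aurka had 3.51 and 3.01, and Plk1 had 2.31 and 3.91; these are the mitotic kinases. Bub1b, a spindle checkpoint gene, had 3.32 and 2.25 TPM, and Bub1 had 0.74 and 0.62 TPM from 31 and 20 counts. Cdc20, the activator of the APC/C ubiquitin ligase, had 2.79 and 3.41 TPM, and its E2 enzyme gene Ube2c had 7.26 and 5.76 TPM. Mki67, which encodes the proliferation antigen Ki-67, had 5.75 and 5.56 TPM from 715 and 683 counts. Pcna stood at 18.8 ± 1.16 times Mki67 over all transcripts (n = 2). Over transcripts with a complete coding sequence only, that ratio was 14.2 ± 1.85 (n = 2).

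A published G2/M score of 54 genes had 49 expressed ones and a median of 6.26 TPM. Leaving out those among the 49 described here, 40 of 44 were expressed and the median was 7.12 TPM. The highest was Jpt1 at 514 TPM and the lowest Nek2 at 0.365 TPM. Besides Bub1 and Nek2, those not expressed were Gas2l3 at 0.73 and 1.11 TPM, Anln at 0.59 and 2.06 TPM, and Ttk at 2.15 and 0.95 TPM. Among the 7 genes of the MuvB core and its partners, 6 were expressed. Rbbp4, a histone binding protein shared with other complexes, had 243 TPM, while Mybl2 had 1.33 and 3.28 TPM and Foxm1, an activator of mitotic genes, had 0.37 and 1.13 TPM. The APC/C and SCF ubiquitin ligases had 20 of 20 genes expressed and a median of 28.7 TPM, from 3.20 TPM for Skp2, which targets p27 for degradation, to 230.5 TPM for Skp1a.

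The mitotic promoters differed from those of the licensing genes in their letters. The windows of Cdk1, Plk1 and Ccnb2 are shown because they hold the CHR, searched as TTTGAA or TTCGAA on both strands; capitals mark it, and in Cdk1 also the E2F match that lies farthest upstream. They lie at chr10:69352863-69353162 (minus strand), chr7:122159185-122159484 (plus strand) and chr9:70421505-70421804 (minus strand). The windows, their build and their source are as above.
Cdk1: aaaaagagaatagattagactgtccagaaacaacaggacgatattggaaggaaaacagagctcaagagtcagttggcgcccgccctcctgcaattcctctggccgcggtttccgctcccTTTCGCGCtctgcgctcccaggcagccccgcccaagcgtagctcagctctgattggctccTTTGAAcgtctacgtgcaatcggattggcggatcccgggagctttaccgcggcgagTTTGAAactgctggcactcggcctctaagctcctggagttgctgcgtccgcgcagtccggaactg
Plk1: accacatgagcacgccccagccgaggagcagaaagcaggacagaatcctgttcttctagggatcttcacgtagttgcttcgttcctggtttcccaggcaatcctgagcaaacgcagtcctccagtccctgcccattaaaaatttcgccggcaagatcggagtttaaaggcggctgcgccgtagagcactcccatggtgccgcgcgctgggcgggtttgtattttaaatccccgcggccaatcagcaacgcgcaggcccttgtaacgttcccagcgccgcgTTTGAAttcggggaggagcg
Ccnb2: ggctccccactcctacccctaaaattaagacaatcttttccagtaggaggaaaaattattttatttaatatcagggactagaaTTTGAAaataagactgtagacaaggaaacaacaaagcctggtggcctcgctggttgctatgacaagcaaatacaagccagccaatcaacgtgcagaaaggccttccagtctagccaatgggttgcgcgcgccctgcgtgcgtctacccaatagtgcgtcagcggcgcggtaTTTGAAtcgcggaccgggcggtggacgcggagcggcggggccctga

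A CHR was found in 10 of the 12 G2 and mitosis genes with a window, beside 21.7% of all genes with a window, and in 3 of 8 licensing genes. None of the 5 nucleotide supply genes, 6 G1 genes or 5 inhibitors held one, while 2 of 3 pocket protein and E2F genes did (Rbl2 and E2f2). The CCAAT box, which binds NF-Y and was searched as CCAAT on both strands, was present in 11 of the 12, beside 41.1% of all genes. Elsewhere it was present in 6 of 8 licensing genes, 3 of 5 nucleotide supply genes and 3 of 6 G1 genes. It was also in 4 of 5 inhibitors and 1 of 3 pocket protein and E2F genes, making 28 of all 39. CHR and CCAAT together were present in 10 of the 12 G2 and mitosis genes and 3 of 8 licensing genes, beside 9.65% of all genes. In the G2/M score without the members, 28 of 38 genes held a CHR. The mitotic genes without one were Birc5 and Ccnb1. These counts describe the windows only, and no binding was measured.

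**Figure D2:**
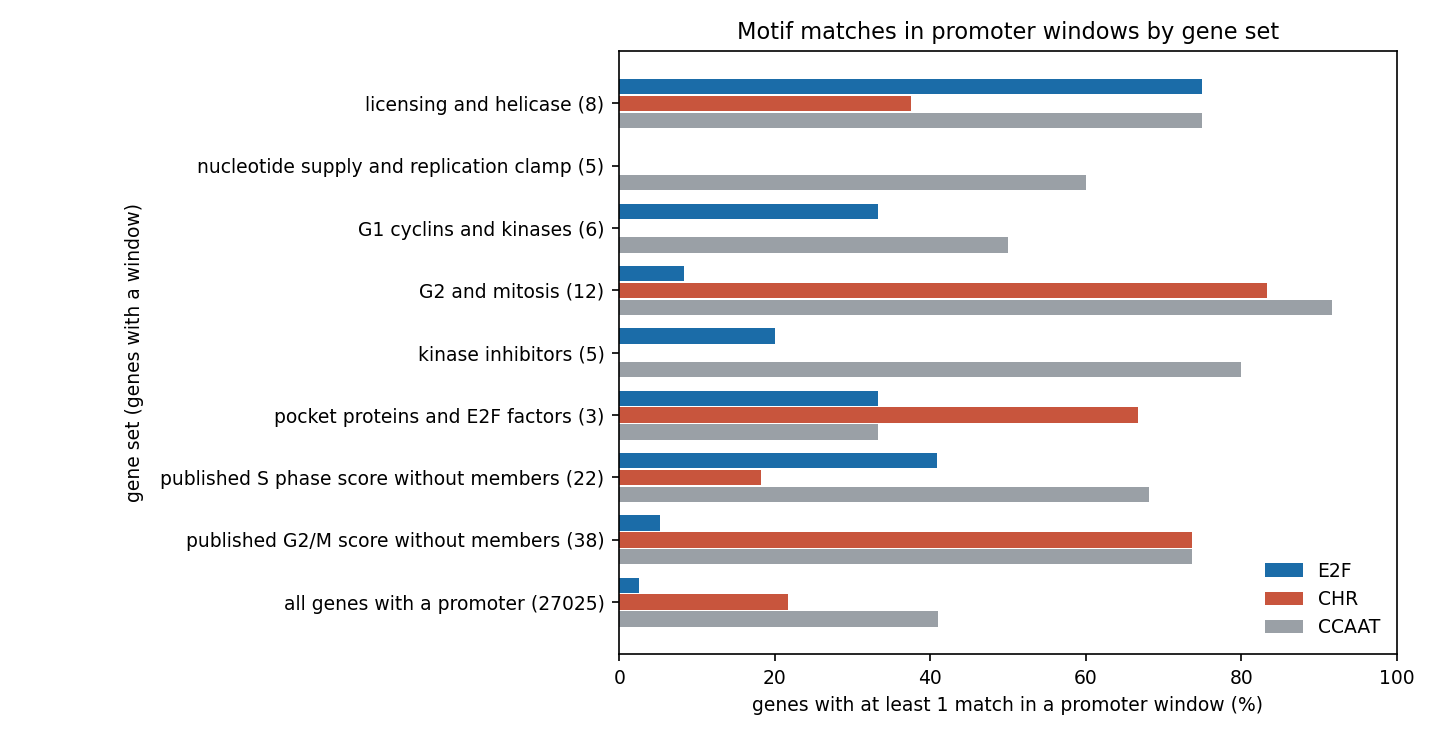
The share of genes with at least 1 E2F, CHR or CCAAT match in a 300-base promoter window, in percent, by role, for both published scores without the 49 genes, and for all genes; the number of genes with a window is in brackets. The E2F bar is longest for licensing and helicase genes (75.0%) and the CHR bar for G2 and mitosis genes (83.3%).

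Of the 5 kinase inhibitors, 2 were among the most abundant of the 49. Cdkn1b (chr6:134920401-134925513, plus strand), which encodes p27, had 100.3 and 84.0 TPM. Cdkn2d (chr9:21288410-21291407, minus strand), which encodes the INK4 protein p19, had 81.7 and 93.5 TPM. Their order turned between the libraries. Cdkn2c, which encodes the INK4 protein p18, was lower at 11.4 and 9.81 TPM. Cdkn1a, the p53 target p21, had 3.10 and 1.83 TPM from 51 and 35 counts. Cdkn2a, the INK4a and ARF gene, had 1 count in library 1 and 0 in library 2, which is under the limit of 3 counts. Cdkn1b stood at 39.1 ± 9.58 times Cdkn1a and at 16.3 ± 1.65 times Mki67 (n = 2 each).

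The promoter window of Cdkn1b (chr6:134920151-134920450, plus strand) is shown beside those of the replication and mitotic genes because it holds neither an E2F match nor a CHR and so carries no capitals. That does not set it apart, since the 5 nucleotide supply genes, Birc5 and Ccnb1 held neither as well. Its 3 CCAAT matches are not marked.
Cdkn1b: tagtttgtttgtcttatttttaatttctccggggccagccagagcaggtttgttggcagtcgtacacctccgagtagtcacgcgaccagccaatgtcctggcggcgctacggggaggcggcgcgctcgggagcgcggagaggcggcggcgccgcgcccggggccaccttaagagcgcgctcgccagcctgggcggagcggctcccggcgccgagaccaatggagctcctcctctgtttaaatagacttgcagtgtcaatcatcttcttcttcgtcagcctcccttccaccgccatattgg

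Of the 11 other inhibitor, pocket and E2F family genes, 7 were expressed, and the median was 2.59 TPM. Cdkn1c (p57), Cdkn2b (p15), E2f7 and E2f8 were not. Tfdp1, the DNA-binding partner of E2F factors, was the highest at 22.3 TPM, and Rbl1, the p107 pocket protein, had 13.4 and 14.4 TPM.

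The pocket proteins and E2F factors had the highest role median, 39.1 TPM, with 4 of 5 expressed. Rb1 (chr14:73183673-73325822, minus strand), the retinoblastoma gene, had 61.1 and 63.9 TPM. Rbl2 (chr8:91070057-91123844, plus strand), which encodes p130, the pocket protein of resting cells, had 50.9 and 48.7 TPM. Among the factors, the repressor E2f4 had 45.2 and 33.1 TPM, E2f2 had 11.6 and 10.8 TPM, and the activator E2f1 had 0.12 and 0.31 TPM from 4 and 11 counts. The 3 factors had the same order in both libraries with no overlap.

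Per gene, TPM adds up all annotated transcripts, and a short transcript with few reads can carry a large TPM. Rb1 was such a case. Its transcript Rb1-206, a processed transcript of 408 bases with no coding sequence, held 75.4% and 81.3% of the TPM of Rb1 from 206 and 243 counts. The 27-exon coding transcript Rb1-201 of 4656 bases held 12.9% and 11.4% of the TPM but 63.6% and 61.3% of the counts, at 7.86 and 7.27 TPM. All bases of Rb1-206 lie opposite to exons of a gene on the other strand, and Rb1 overlaps Lpar6 (1832 and 2155 counts) and Rcbtb2 (903 and 1020 counts) in that orientation. The strand setting of the counting is not given in the sources used here, so reads of Rb1-206 and of the opposite gene cannot be told apart. Exons of 18 of the 49 genes overlap exons of a gene on the opposite strand, and the same limit holds for the overlapped stretch of each.

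Levels were therefore also taken over transcripts with a complete coding sequence only, a choice made after these values were seen. On that scale Rb1 had 7.86 and 7.27 TPM and Rbl2 had 42.7 and 37.3 TPM. Their order turned: Rb1 to Rbl2 was 1.26 ± 0.08 over all transcripts and 0.190 ± 0.008 over complete coding ones (n = 2 each). Among the ring subunits Mcm7 (29.5 and 26.8 TPM) and Mcm3 (33.0 and 23.9 TPM) overlapped on that scale. The role median of the pocket proteins and E2F factors was 9.87 TPM by this choice, in place of 39.1 TPM, and that of nucleotide supply was 24.0 TPM in place of 37.4 TPM.

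**Figure D3:**
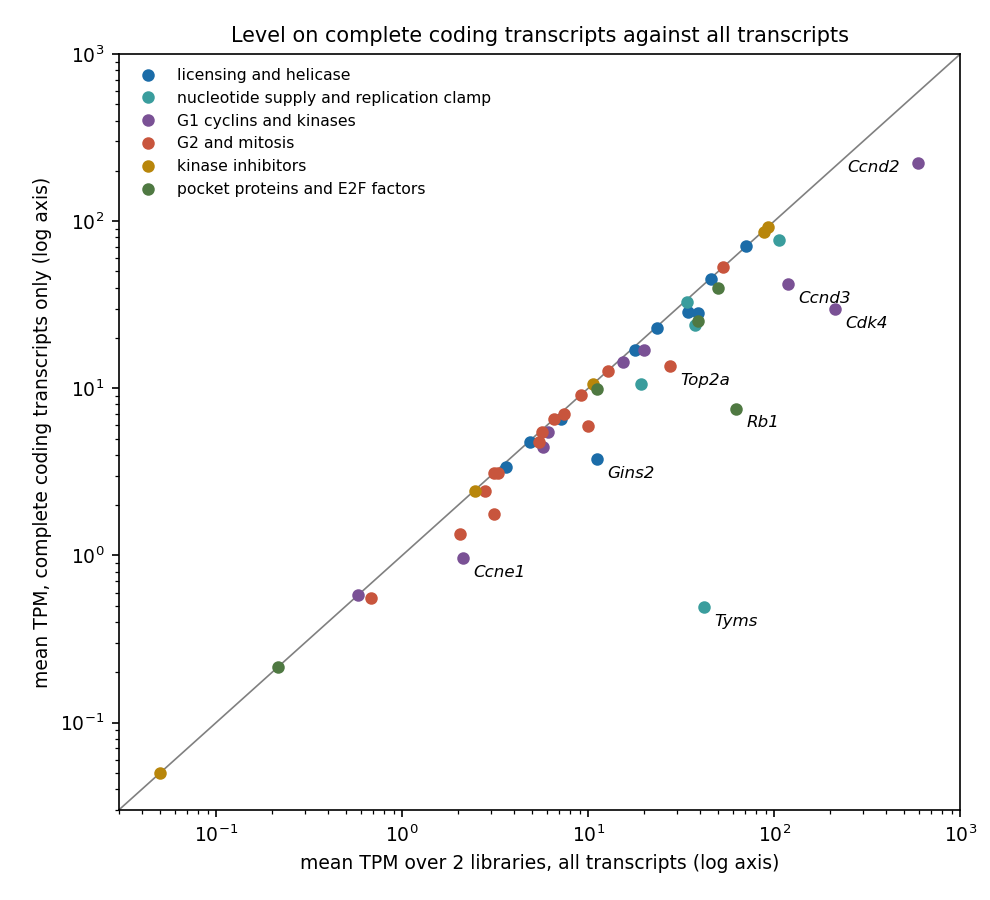
Mean TPM of 2 libraries over complete coding transcripts against mean TPM over all transcripts, on log axes, for the 49 genes coloured by role; the line marks equality. The 8 named genes, Tyms, Rb1, Cdk4, Gins2, Ccnd3, Ccnd2, Ccne1 and Top2a, lie under 50% of their level over all transcripts, and the other 41 lie nearer the line.

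Complete coding transcripts held a median of 90.2% of the TPM over the 49 genes, beside 76.0% for expressed protein-coding genes. In 8 genes they held under 50%. For Tyms they held 1.17%, with 0.23 and 0.75 TPM left. Most of its TPM was assigned to a retained intron transcript (Tyms-206, 31.7% and 27.3%), to 2 transcripts marked for nonsense-mediated decay and to 1 with an incomplete coding sequence. Cdk4 kept 14.1%, at 28.2 and 31.5 TPM, and its leading transcript was the retained intron Cdk4-209 of 468 bases (36.9% and 37.9%). The ratio of Cdk4 to Cdk6 was 13.8 ± 0.56 over all transcripts and 2.07 ± 0.20 over complete coding ones (n = 2 each). Gins2 kept 33.9%, with the retained intron Gins2-204 at 47.9% and 50.1%. Ccnd3 kept 35.8%, led by the retained intron Ccnd3-203 at 26.3% and 37.4%.

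Ccnd2 kept the first rank on either scale. Its full transcript Ccnd2-201 of 6330 bases had 183 and 172 TPM and 84.3% and 83.0% of the counts, while Ccnd2-206, of 627 bases and with an incomplete coding sequence, had 182 and 189.7 TPM from 7.68% and 8.42% of the counts. Over complete coding transcripts Ccnd2 had 224 and 220.3 TPM and was 5.27 ± 0.24 times Ccnd3. The inhibitors were little touched: Cdkn1b kept 92.2 TPM and Cdkn2d kept 86.1 TPM as means, and they ranked 2 and 3 among the 49 on that scale.

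In 41 of the 49 genes both libraries had the same leading transcript, and for 5 genes it was not protein coding. Cdkn2a had 0 counts in library 2 and so no leading transcript there. It is counted among the genes without a shared lead, and its gap of 100 points is kept below. The largest gap between libraries in a transcript's share had a median of 6.09 percentage points in the 24 genes whose libraries summed to at least 1000 counts and 17.7 points in the 25 others. Mcm5 was an exception with many counts: Mcm5-205 held 60.2% in library 1 and 5.93% in library 2, and Mcm5-203 held 35.0% and 86.1%. Both are complete coding transcripts, and the level of the gene was 22.5 and 24.4 TPM. Cdkn2d behaved alike, with Cdkn2d-203 first in library 1 (50.7% and 37.9%) and Cdkn2d-201 first in library 2 (45.8% and 62.1%). In Ccnd2, Ccnd2-201 was first in library 1 (30.06% and 29.88%) and Ccnd2-206 in library 2 (29.74% and 32.95%). Mcm3 kept its leading transcript, but its retained intron Mcm3-203 held 2.58% in library 1 and 25.6% in library 2. Its level was 34.3 and 34.4 TPM from 1237 and 1021 counts. Such shares are estimates that depend on how reads shared by transcripts are divided.

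**Figure D4:**
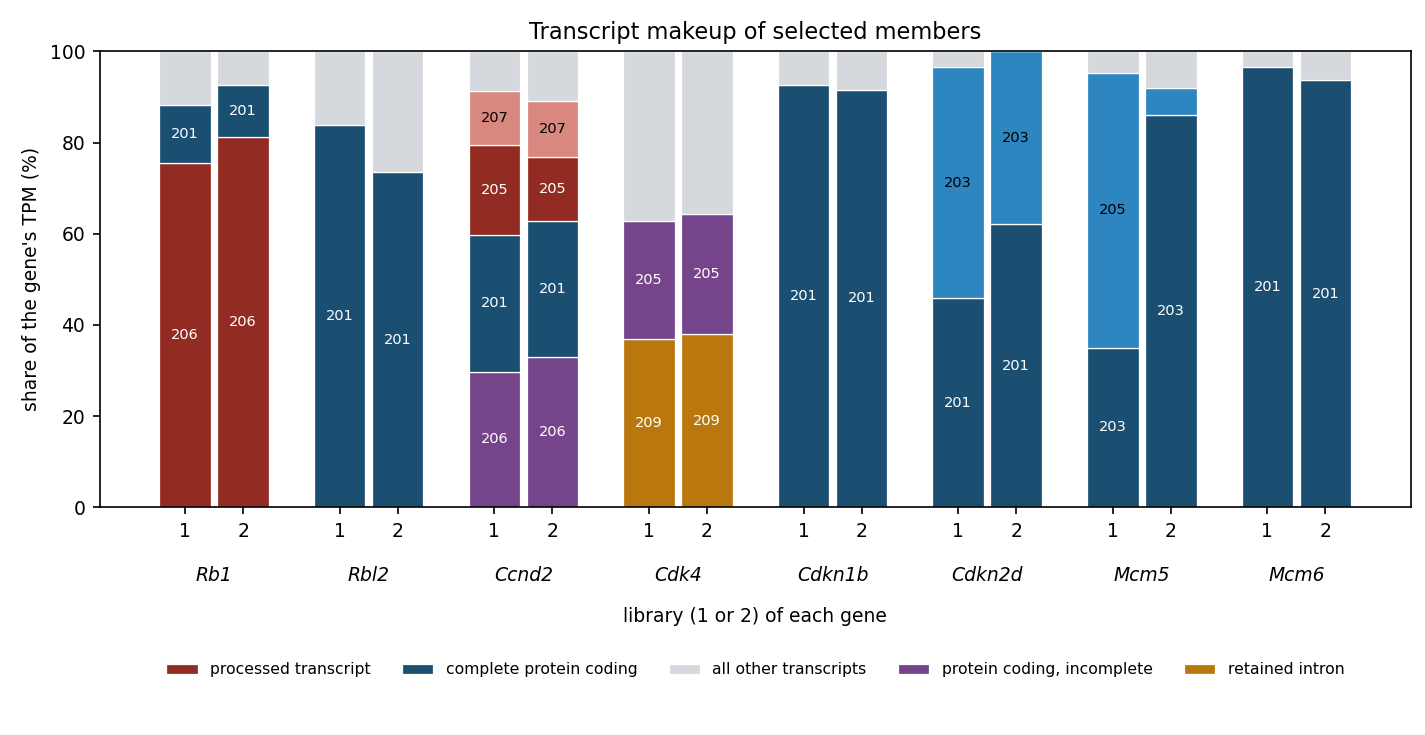
The share of each transcript in its gene's TPM, in percent, for 8 genes in library 1 and library 2; numbers in the bars are transcript numbers, colours give the annotated type and grey is all transcripts under 10% in both libraries. Rb1 is led by its processed transcript 206 (75.4% and 81.3%), and Cdkn1b and Mcm6 by their coding transcript 201. Mcm5, Cdkn2d and Ccnd2 change their leading transcript between libraries.

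The 2 libraries were compared by an exact binomial test on each gene, which compares these libraries and not conditions and covers counting error only. Of 17458 genes tested, 4387 (25.1%) differed at an adjusted p of 0.05 or less, and 21.9% differed by more than 1.5-fold. Of the 49 genes 48 had enough counts, and 20 of them differed, 10 in each direction. Among expressed protein-coding genes 3062 of 10250 differed. Past 1.5-fold were 6 of the 48, beside 543 of the 10250 expressed protein-coding genes. With at least 50 counts in sum, 5 of 47 members and 1144 of all 12705 genes were past it. The median size of the log2 ratio was 0.23 for the 48 genes and 0.22 for all genes tested. Over the 12705 genes with at least 50 counts in sum, as 47 of the 48 had, it was 0.157. The variation beyond counting error was 13.0% over all genes.

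The sizes were small for most. Tk1 was higher in library 2 by 1.51-fold (95% interval 1.27 to 1.78, adjusted p = 1.4e-05), Cdk1 by 1.68-fold (1.28 to 2.23, adjusted p = 0.0013), Aurkb by 1.52-fold (1.16 to 1.98, adjusted p = 0.0099) and Plk1 by 1.74-fold (1.26 to 2.41, adjusted p = 0.0035), all by that exact test. These 4 were the ones past both the fold and the test. Bub1 and E2f1 were past the fold only, with 0.63-fold (0.34 to 1.14) and 2.70-fold (0.80 to 11.6), and their intervals include no difference. E2f4 had the lowest adjusted p of the 49 in the exact test, 2.8e-09, at 0.72-fold (0.65 to 0.80) in library 2 against library 1.

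By role, library 1 had the higher scaled counts for the 3 of 10 licensing genes that differed (Mcm2, Mcm3 and Cdt1). In TPM, Mcm3 had 34.3 and 34.4. In nucleotide supply 3 of 5 differed, all higher in library 2 (Pcna, Rrm2 and Tk1). In G1, Cdk4 and Ccne2 were higher in library 2 and Ccnd3 and Cdk2 in library 1. In G2 and mitosis, Stmn1, Cdk1, Aurkb and Plk1 were higher in library 2 and Ccnb1 and Ccnb2 in library 1. Cdkn1b, E2f4 and Rbl2 were higher in library 1 and Cdkn2d in library 2. Ccnd2, with the most counts, did not differ at this depth: 0.98-fold (0.96 to 1.00).

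**Figure D5:**
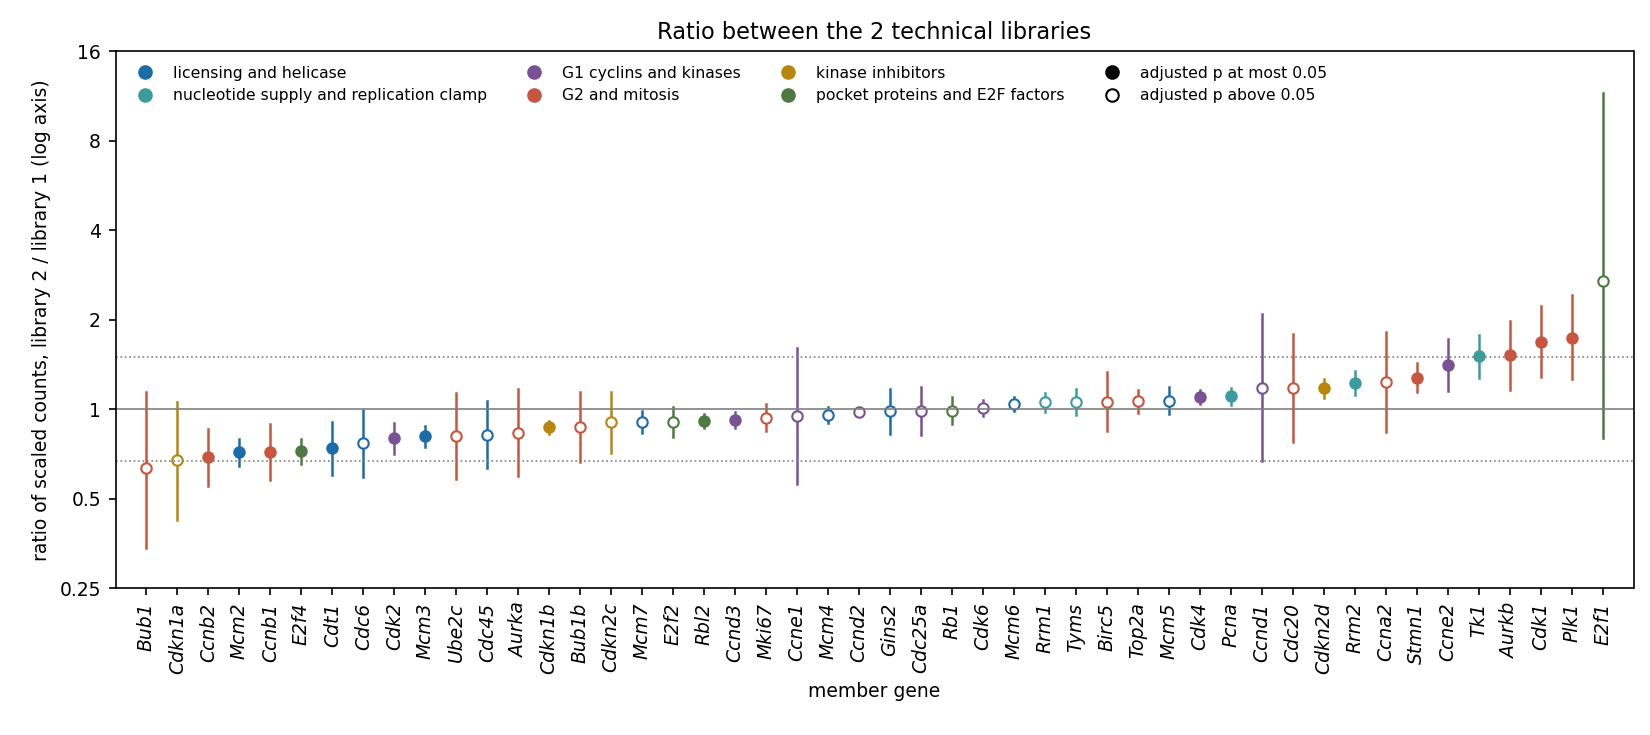
The ratio of scaled counts, library 2 over library 1, for the 48 genes with enough counts on a log axis; bars are 95% exact intervals for counting error, filled points have an adjusted p of 0.05 or less, and dotted lines mark 1.5-fold. Of the 20 filled points 10 lie on each side, from 0.69 for Ccnb2 to 1.74 for Plk1, and E2f1 has the widest interval.

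A second gene table of whole-number counts, from an earlier annotation, was compared for the same libraries. It held a median of 47.4% of the estimated count of the 49 genes in library 1, beside 40.8% for expressed protein-coding genes, and it ranged from 1.91% to 87.5% over the 45 expressed genes. Cdk6 had 40 counts there and 2093 in the larger table, and Ccnd2 had 1559 and 16993. Of the 20 genes that differed between libraries, 18 had the same sign in that table, and 7 differed there too with the same sign: Mcm2, Mcm3, Cdt1, E2f4, Cdk1, Aurkb and Plk1. The 2 with the other sign were Cdkn1b and Stmn1, at 271 and 311 counts and at 31 and 29 counts.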

How the data were processed

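PolyA plus RNA was sequenced in 2 technical libraries of 1 biological sample, the only group. Per the file headers and the deposited readme texts, one gene table and a transcript table hold unscaled estimated counts (expected counts) per feature, on mm10 with GENCODE M21. Their TPM values, a maximum likelihood and a posterior mean estimate, were scaled by the authors over every feature. Their FPKM values were also deposited, scaled by length and depth. Per the file headers, a percent gives each transcript's part of its gene's TPM, and a posterior standard deviation goes with each count. The interval bounds of the TPM, held here as a score because they do not sum like TPM, were deposited too and not used. A smaller deposited gene table holds whole-number counts on GENCODE M4, which the authors made from an earlier alignment. Not given in the sources used here are the aligner, the software versions and the strand setting. In all, 0 columns of per-sample values were left out for want of a sample.

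From these files, genes were joined to the annotation by identifier, and 55536 matched. Counts were rounded and scaled by TMM (edgeR 4.0.16, R 4.3.3), with DESeq2 1.42.0 size factors as an alternative scaling. The libraries were compared by an exact two-sided binomial test (scipy 1.17.1) over all genes with at least 10 counts in sum, adjusted by the Benjamini-Hochberg method at 0.05. Intervals are 95% exact ones for counting error. The test was checked on simulated data that held counting error only, so that check does not cover the variation beyond it. Log2 ratios used a prior count of 0.5. The smaller table's identifiers were matched without their version numbers. Promoter windows came from RefSeq (GRCm38.p6) by symbol.

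The 49 members and all gene lists were chosen with earlier results of these data known. All 49 are named, by role. Genes of the other cell cycle lists are named where they are the highest or lowest of their list, or fall under 1 TPM in a library; Gmnn, Cdk7, Mybl2 and Rbl1 lie outside that rule and were named after their values were seen, as were the cell type markers named singly. The alternatives were DESeq2 and total-count scaling, other count and TPM thresholds, the smaller table, posterior mean TPM, FPKM, protein-coding transcripts only, and each library alone; complete coding transcripts were added after the data were seen.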

Additional observations from a re-analysis of the deposited data

How the results depend on the processing

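Of the 49 genes, 45 were expressed in the reported setting, 35 at a threshold of 5 TPM, 47 at 0.5 TPM and 43 over complete coding transcripts. Their median level, 11.2 TPM, was 9.11 TPM over protein-coding transcripts, 9.11 TPM over complete coding transcripts, 8.90 as FPKM, and 11.6 to 12.6 TPM with either library left out. The number of genes that differed between libraries was 4387 of 17458 tested and became 1163 of 11114 with the counts of the smaller table. There the 20 of 48 members that differed became 7 of 46. That table holds 23.7% and 22.8% of the counts. With the other scalings and filters 19 or 20 of the 49 differed, and 5 to 7 passed 1.5-fold in any setting.

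By gene, complete coding transcripts moved 14 of the 49 levels by over 1.5 times, protein-coding transcripts 13, and posterior means 2 (Bub1 at 1.38 TPM and Cdkn2a at 0.215 TPM). Leaving out library 1 moved Cdkn2a by over 1.5 times, and leaving out library 2 moved Cdkn2a and E2f1, genes with 1 and 4 counts in library 1. No paired analysis was possible because all samples belong to 1 group. The test covers counting error only, and no result extends past this 1 mouse.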
